A study of Homo sapiens with 12 samples.

Results

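Interferon-stimulated genes are genes whose transcription rises when a cell receives an interferon signal. The group described here held 41 such genes, chosen by symbol and not by a threshold on their level or change, and all 41 were found among the 20003 genes measured. The mRNA was sequenced from NB4, an acute promyelocytic leukemia cell line that carries the PML-RARα fusion, and from Kasumi-1, an acute myeloid leukemia cell line that carries the AML1-ETO fusion of t(8;21). Both are established lines, so each disease subtype was represented by a single line. NB4 control and Kasumi-1 control cells received DMSO, and NB4 OGP46 and Kasumi-1 OGP46 cells received 1 μM of OGP46, a kaurene diterpenoid made from oridonin, for 48 h by the sample labels. There were 3 samples in each of the 4 groups, 12 in all, and no label says whether the 3 samples came from separate cultures, so the p-values measure the spread between these samples only. Expression was given as FPKM, fragments scaled to the length of the exons and to the total of mapped fragments, which allows levels of different genes to be compared per length.

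Type I interferons bind the receptor IFNAR1 and IFNAR2 and activate the kinases JAK1 and TYK2. These phosphorylate STAT2, which acts together with IRF9 on the interferon-stimulated response element (ISRE) in promoters. Interferon gamma acts mainly through the gamma-activated site (GAS) and induces IRF1 and the immunoproteasome. Many of the induced genes encode antiviral proteins, and STAT2, IRF7 and IRF9 are themselves interferon-stimulated.

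The members were sorted by role into transcription factors, IFIT proteins, IFITM proteins, ISG15 with its enzymes, MX proteins, OAS proteins with ISG20, RNA sensors and helicases, IFI genes with XAF1, a group of PARP, SAMD9 and TRIM22 genes, and immunoproteasome subunits. A gene entered a test when its mean was at least 0.1 FPKM over the samples tested. In NB4, 37 of the 41 members passed and ISG20, MX1, IFI44 and IFI44L were below. In Kasumi-1, 31 passed, and ISG20, MX1, MX2, OAS1, OAS2, OAS3, IFI27, IFI44L, TRIM22 and PSMB9 were below. The lowest member inside this limit was IFI27 at 0.219 FPKM in NB4 and USP18 at 0.110 FPKM in Kasumi-1, and the highest outside it was MX1 at 0.0415 FPKM in NB4 and PSMB9 at 0.0973 FPKM in Kasumi-1. Changes were tested by limma on log2(FPKM + 0.1) with Benjamini-Hochberg adjustment over all genes tested, and a change was called where its size on the log2 scale reached 0.58 and its adjusted p was below 0.05. Fold changes are on this log2(FPKM + 0.1) scale, which understates the change of low genes.

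Some features of the whole series touch these genes. The FPKM as deposited were higher with OGP46 in NB4 across most genes, with a median log2 fold change of 0.18 over the 11750 genes tested, against 0.05 over 11835 genes in Kasumi-1. Control and OGP46 samples of one number shared their deviations from the group means in every pair of both lines, so the test with the sample number as a block is given wherever it changed a call. In NB4 the pairing was uneven, with a correlation over all genes tested of 0.62 for samples 2, 0.35 for samples 1 and 0.20 for samples 3. The markers RUNX1T1, CD34, KIT, TRH, POU4F1 and HLA-DRA summed to between 273 and 310 FPKM in Kasumi-1 controls and to between 0.737 and 3.87 FPKM in NB4 controls. The genes listed for NB4 did not mark it, since 5 of 6, all but CD33, were called lower there than in Kasumi-1. NB4 control sample 3 held the highest CD34 among the NB4 samples, at 1.35% of the Kasumi-1 level.

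Promoter sequence was available in RefSeq (GRCh38.p14) for 33 of the 41 members, as windows from 250 bases before to 50 bases after the start site. The ISRE core, searched as GAAA, any 2 bases and GAAA again or as its reverse complement, was present in 23 of the 33 members (69.7%) and in 4.2% of 15518 genes of the series with a window. The GAS element, searched as TTCNNNGAA, which reads the same on both strands, was present in 10 of the 33 members (30.3%) and in 9.02% of the genes. Both occurred in 6 members (18.2%) and in 0.709% of the genes. Below are stretches before the start sites of the members whose values are described most closely, read 5′ to 3′ on the gene's own strand, with the motif matches in capitals. They lie at chr4:168480513-168480592 (DDX60L, minus strand), chr14:24161182-24161230 (IRF9, plus), chr17:43006742-43006783 (IFI35, plus), chr11:313980-314039 (IFITM1, plus), chr11:320866-320932 (IFITM3, minus) and chr1:1013364-1013419 (ISG15, plus).
DDX60L: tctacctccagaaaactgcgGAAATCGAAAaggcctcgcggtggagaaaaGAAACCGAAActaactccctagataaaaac
IRF9: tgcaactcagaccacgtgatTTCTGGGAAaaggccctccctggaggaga
IFI35: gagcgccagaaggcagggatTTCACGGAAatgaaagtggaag
IFITM1: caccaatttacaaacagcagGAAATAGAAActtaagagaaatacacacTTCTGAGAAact
IFITM3: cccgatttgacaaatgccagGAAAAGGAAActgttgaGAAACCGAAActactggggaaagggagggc
ISG15: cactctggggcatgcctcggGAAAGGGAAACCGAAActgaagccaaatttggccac

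DDX60L and IFITM3 each showed a pair of ISRE cores, and in ISG15 the pair overlapped. IRF9 and IFI35 held a GAS element and no ISRE core in this window, which says only that these letters were not found there. IFITM1 held both motifs, and a further ISRE core overlapped its GAS element and ran past the start site, where the printed stretch ends. In Kasumi-1, DDX60L on the one hand and IFITM1 and IFITM3 on the other had log2 fold changes of opposite sign with OGP46, as described further on, and all of these promoters held ISRE cores.

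The untreated lines were compared first, to give the level from which each started. NB4 controls held more of most members than Kasumi-1 controls: of 38 members tested, 20 were called higher in NB4 (52.6%) and 4 lower (10.5%). Over all 12302 genes tested, 22.7% were called higher in NB4 and 29.7% lower. The median log2 difference, NB4 minus Kasumi-1, was 0.71 over the members and −0.10 over all genes. Members near 0 in one line that passed through the other were prone to differ by that selection, though IFI27, which passed through NB4 alone, was not called. Among the 31 members with a control mean of at least 0.1 FPKM in both lines, 15 were higher in NB4 (48.4%) and 3 lower (9.68%), beside 20.2% and 27.0% of the 10896 such genes. MX2 was among these 31 with a mean of only 0.111 FPKM in Kasumi-1 controls. After scaling to TPM, the calls over all genes were 3586 higher and 3005 lower in NB4, in place of 2790 and 3659, and 25 members were higher and 3 lower.

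**Figure D1:**
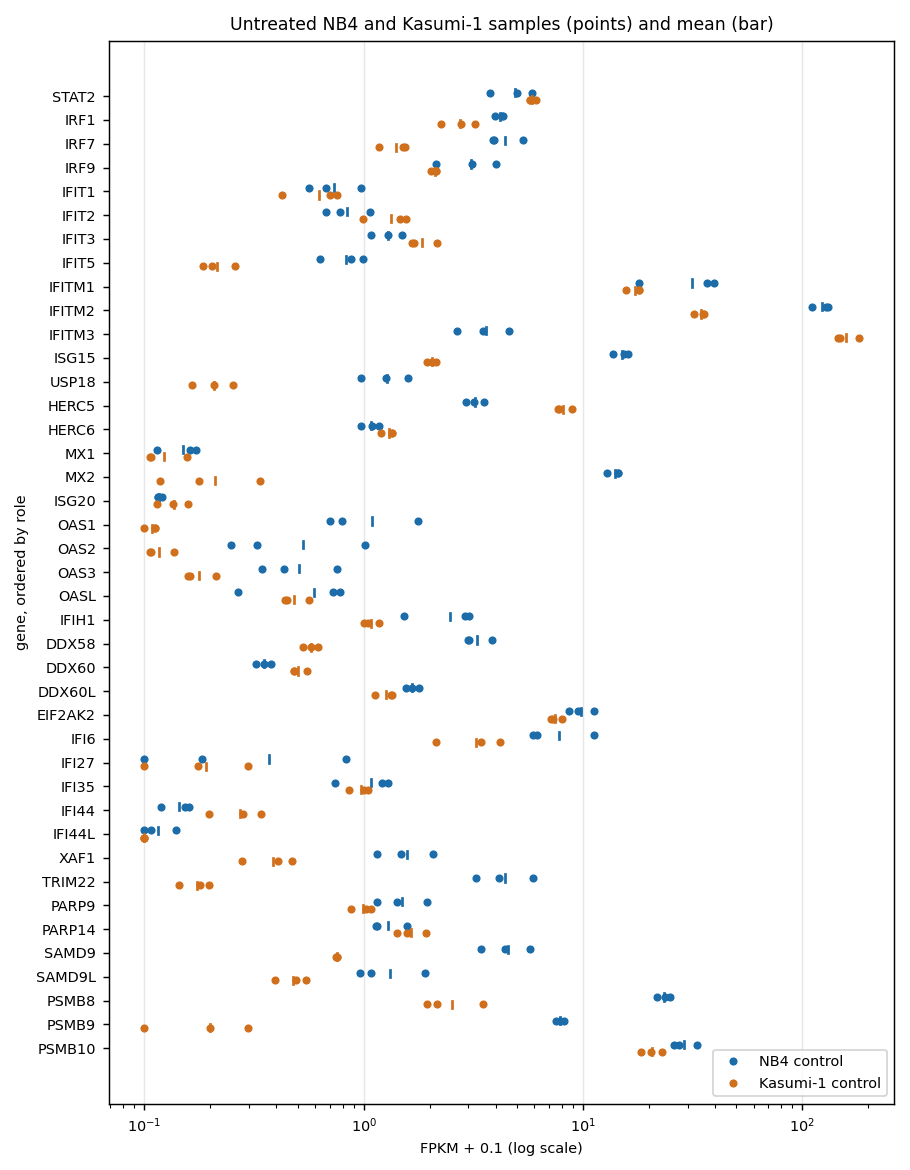
FPKM + 0.1 on a log axis for the 41 members, ordered by role, in the 3 untreated samples of NB4 (blue) and Kasumi-1 (orange), with bars at the means. MX2, TRIM22, PSMB8 and PSMB9 lie far to the right in NB4, and IFITM3 lies far to the right in Kasumi-1.

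MX2, a dynamin-like GTPase known for blocking HIV-1, was at 14.4, 14.3 and 12.8 FPKM in NB4 controls and at 0.0177, 0.237 and 0.0774 FPKM in Kasumi-1 controls. The groups were far apart, with a log2 difference of 6.18 (adjusted p = 3.53e-07 by limma), which was 3.74 with a pseudocount of 1. Its paralog MX1, a GTPase active against influenza virus and usually a sensitive mark of type I interferon, stayed at or below 0.0721 FPKM in all 12 samples. The high MX2 of NB4 was therefore not accompanied by MX1.

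PSMB9, a subunit of the immunoproteasome that cuts peptides for MHC class I, was at 7.43, 7.71 and 8.09 FPKM in NB4 controls and at 0, 0.0997 and 0.196 FPKM in Kasumi-1 controls. The log2 difference was 5.44, but it was 3.00 with a pseudocount of 1 and 6.99 with one of 0.01. PSMB9 reached the 0.1 FPKM limit in the controls of NB4 only, as did TRIM22, IFI27 and the genes OAS1, OAS2 and OAS3, so their differences are given as a description. Of all 643 genes that passed through NB4 alone, 91.4% were called higher there. PSMB8, encoded beside PSMB9 in the MHC region on chromosome 6, was at 23.5, 24.9 and 21.7 FPKM in NB4 controls and at 1.84, 2.06 and 3.39 FPKM in Kasumi-1 controls, a log2 difference of 3.26 (adjusted p = 7.76e-07). PSMB10, the third inducible subunit, lies on chromosome 16 and was high in both lines. It was at 27.4, 33.1 and 25.9 FPKM in NB4 controls and at 18.2, 20.2 and 22.9 FPKM in Kasumi-1 controls. Its log2 difference of 0.49 (adjusted p = 0.00372) was under the fold limit, so the 3 subunits were unequal in Kasumi-1 but within a narrower range in NB4.

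TRIM22, a RING-domain protein active against retroviruses, was at 5.81, 3.13 and 4.03 FPKM in NB4 controls and at 0.0438, 0.0979 and 0.0794 FPKM in Kasumi-1 controls. This was a log2 difference of 4.64, which ranged from 2.28 to 5.71 with the pseudocounts of 1 and 0.01. OAS1, which makes the 2-5A messenger that activates RNase L, was at 1.66, 0.603 and 0.692 FPKM in NB4 controls and at or below 0.0122 FPKM in Kasumi-1 controls, a log2 difference of 3.20, which ranged from 0.94 to 5.73 with these pseudocounts. OAS2 and OAS3 were also called higher in NB4. For OASL, a family member without the synthetase activity, the groups overlapped and the log2 difference was 0.16 (adjusted p = 0.716).

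The 4 members called lower in NB4 were IFITM3, HERC5, IFI44 and IFIT2, of which IFITM3 and HERC5 kept the call without Kasumi-1 control sample 2. IFITM3, a membrane protein that hinders virus entry from endosomes, was at 2.56, 3.40 and 4.51 FPKM in NB4 controls and at 148, 181 and 146 FPKM in Kasumi-1 controls. Its log2 difference of −5.49 (adjusted p = 5.43e-08 by limma) was the largest of these 4. HERC5, the ligase that attaches ISG15 to newly made proteins, was at 3.42, 2.83 and 3.08 FPKM in NB4 and at 7.64, 8.79 and 7.57 FPKM in Kasumi-1, a log2 difference of −1.34 (adjusted p = 4.98e-06).

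IFI44 passed through Kasumi-1 alone and had a log2 difference of −0.90, and IFIT2, which binds viral RNA, had one of −0.67 (adjusted p = 0.0265). IFIT2 lost its call under each of the 3 other scalings, and both lost it with a pseudocount of 1. IFI44 was at most 0.0597 FPKM in NB4 controls and at most 0.239 FPKM in Kasumi-1 controls.

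The IFITM genes lie next to one another on chromosome 11, IFITM2 at chr11:307816-309395, IFITM1 at chr11:314040-315272 and IFITM3 at chr11:319676-320860 (GRCh38.p14). In NB4 their order by level was IFITM2, IFITM1, IFITM3, and in Kasumi-1 it was IFITM3, IFITM2, IFITM1, with no overlap between neighbours in the controls of either line. IFITM2 was at 129, 111 and 131 FPKM in NB4 controls and at 32.1, 35.6 and 35.2 FPKM in Kasumi-1 controls, a log2 difference of 1.84 (adjusted p = 1.74e-07 by limma). IFITM1 was at 39.6, 17.9 and 36.7 FPKM in NB4 controls and at 15.6, 17.9 and 17.9 FPKM in Kasumi-1 controls. NB4 control sample 2 reached down to the Kasumi-1 values, and the log2 difference was 0.79 (adjusted p = 0.0202). These transcripts resemble one another, and 29.4% of the 50-base words of IFITM1 also occur in IFITM2 and 12.9% of those of IFITM2 in IFITM3, so the split of fragments among them is uncertain. An alternative added after the data were seen subtracted Kasumi-1 signal from the NB4 samples in proportion to their CD34. By it the IFITM3 of NB4 control sample 3 went from 4.51 to 2.38 FPKM, and samples 1 and 2 went to 2.46 and 3.15 FPKM. Such a subtraction lowers any gene that is high in Kasumi-1. Whether IFITM3 went with the CD34 signal in NB4 was not tested.

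ISG15, the ubiquitin-like modifier, was at 15.9, 13.7 and 15.3 FPKM in NB4 controls and at 1.84, 1.95 and 2.03 FPKM in Kasumi-1 controls, a log2 difference of 2.88 (adjusted p = 5.43e-08 by limma). Thus the modifier was higher in NB4 while its ligase HERC5 was lower. USP18, which removes ISG15 from proteins, was higher in NB4 as well (log2 difference 2.61, adjusted p = 1.12e-05). HERC6 was not called, with a log2 difference of −0.27 (adjusted p = 0.108) that turned to 0.02 after quantile normalization.

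Among the transcription factors, IRF7, which drives interferon alpha transcription, and IRF1, an inducer of the immunoproteasome genes, were called higher in NB4, with log2 differences of 1.63 and 0.62. IRF9 had a log2 difference of 0.50 (adjusted p = 0.051) and STAT2 of −0.28 (adjusted p = 0.121). Of the RNA sensors, DDX58 (RIG-I) and IFIH1 (MDA5) were called higher in NB4, with log2 differences of 2.51 and 1.14. EIF2AK2, the kinase PKR that halts translation when it binds double-stranded RNA, was at 11.1, 8.57 and 9.33 FPKM in NB4 controls and at 7.01, 7.21 and 7.92 FPKM in Kasumi-1 controls. The EIF2AK2 groups did not overlap, but the log2 difference of 0.38 (adjusted p = 0.0114) was under the fold limit. The other members called higher in NB4 were IFIT5, IFI6, XAF1, SAMD9 and SAMD9L, with log2 differences between 1.25 and 2.55.

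**Figure D2:**
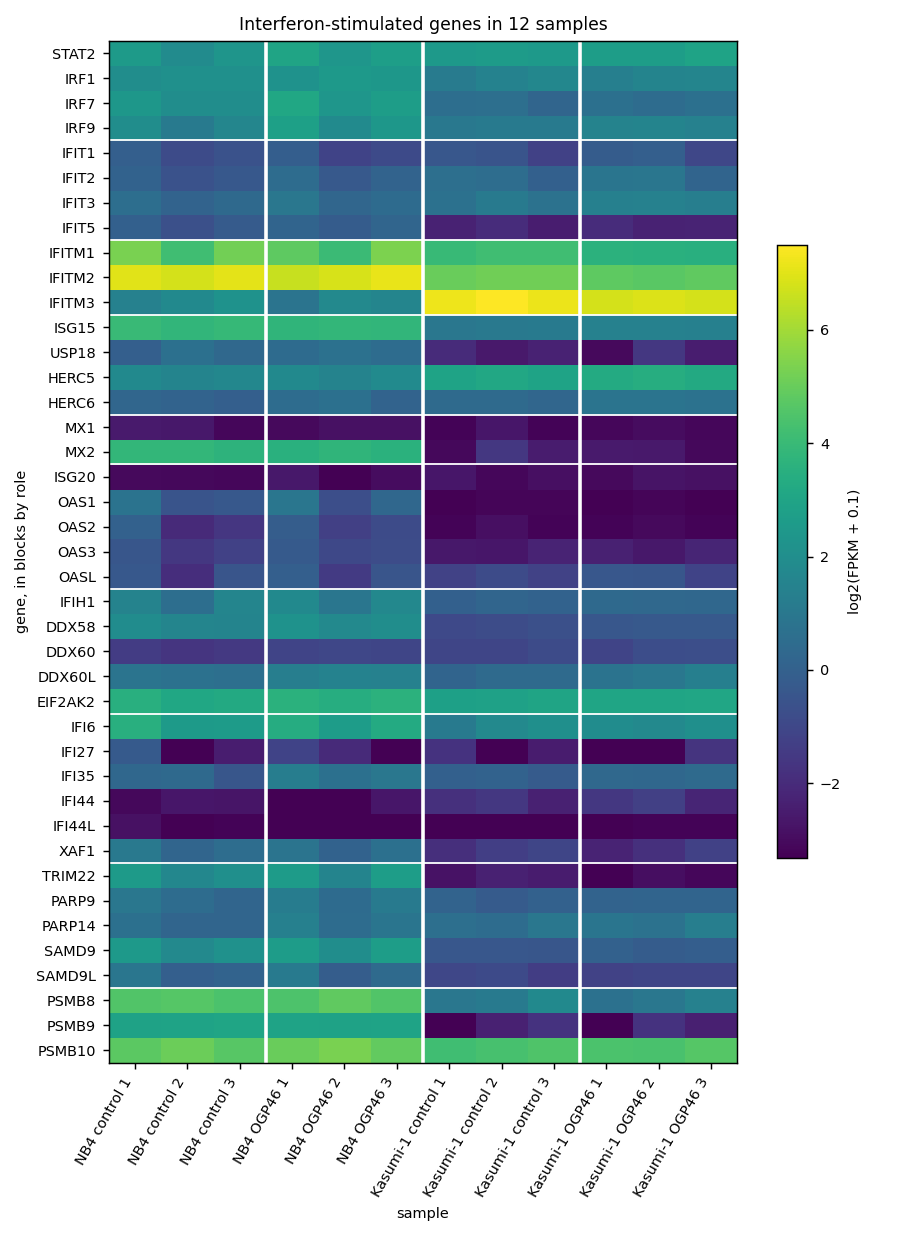
Heat map of log2(FPKM + 0.1) for the 41 members (one row each, in blocks by role) in the 12 samples (columns, in blocks by group). MX1, ISG20 and IFI44L stay dark in all samples, the IFITM rows are brightest, and the difference between the lines is wider than that between control and OGP46.

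The comparison of OGP46 with control asked how the members responded in each line. In NB4, DDX60L was the member called, and 0 members were called down. That was 1 of 37 members, beside 1.45% of all genes called up and 0.111% called down. An unadjusted p below 0.05 was found for 7 members (18.9%, beside 29.1% of all genes). With the sample number as a block, 4 members were called up, DDX60L, IFI35, IRF7 and IRF9, and 0 down, beside 5.06% of all genes up and 1.15% down. These 4 calls fell to 2 (IFI35 and IRF9) with the block and TPM scaling and to 0 with the block and median centring. Without the block, 0 of all 11750 genes were called by limma under each of the 3 other scalings, with between 1764 and 1942 of them at an unadjusted p below 0.05. When NB4 OGP46 sample 2 was left out, IRF7 and IRF9 were called without the block and DDX60L was not.

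The median log2 fold change of the 37 members was 0.24, beside 0.18 for all genes. This became 0.13 beside 0.06 after TPM scaling, 0.02 beside −0.04 after median centring and 0.05 beside −0.01 after quantile normalization. Of the 28 members above 0, 7 changed sign under at least 1 of these scalings (IFIT3, OAS1, IFI6, HERC5, TRIM22, SAMD9L and PSMB8). The OGP46 and control groups of NB4 did not overlap for 4 of the 37 members, DDX60, DDX60L, IFI35 and IRF1, all higher with OGP46 (10.8%, beside 32.7% of all genes), and 0 were lower (beside 1.91%). All 3 same-numbered pairs were higher with OGP46 for 20 of the 37 members (54.1%, beside 52.9% of all genes).

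DDX60L, a helicase-like protein related to DDX60, was at 1.69, 1.55 and 1.46 FPKM in NB4 control samples 1 to 3 and at 2.34, 2.66 and 2.63 FPKM in NB4 OGP46 samples 1 to 3. Every OGP46 sample lay above every control sample. The log2 fold change was 0.67 (1.59-fold, SE 0.12, adjusted p = 0.0383 by limma, 0.00379 with the block). The call was lost when any single NB4 sample was left out and under each of the 3 other scalings, and with the block after TPM scaling (0.55) and median centring (0.45). In Kasumi-1, DDX60L was at 1.03, 1.24 and 1.23 FPKM in the controls and at 1.64, 1.86 and 2.48 FPKM with OGP46, again without overlap. The log2 fold change was 0.71 (1.64-fold, SE 0.16, adjusted p = 0.0961, 0.0165 with the block). With the block, DDX60L was the member called in both lines.

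**Figure D3:**
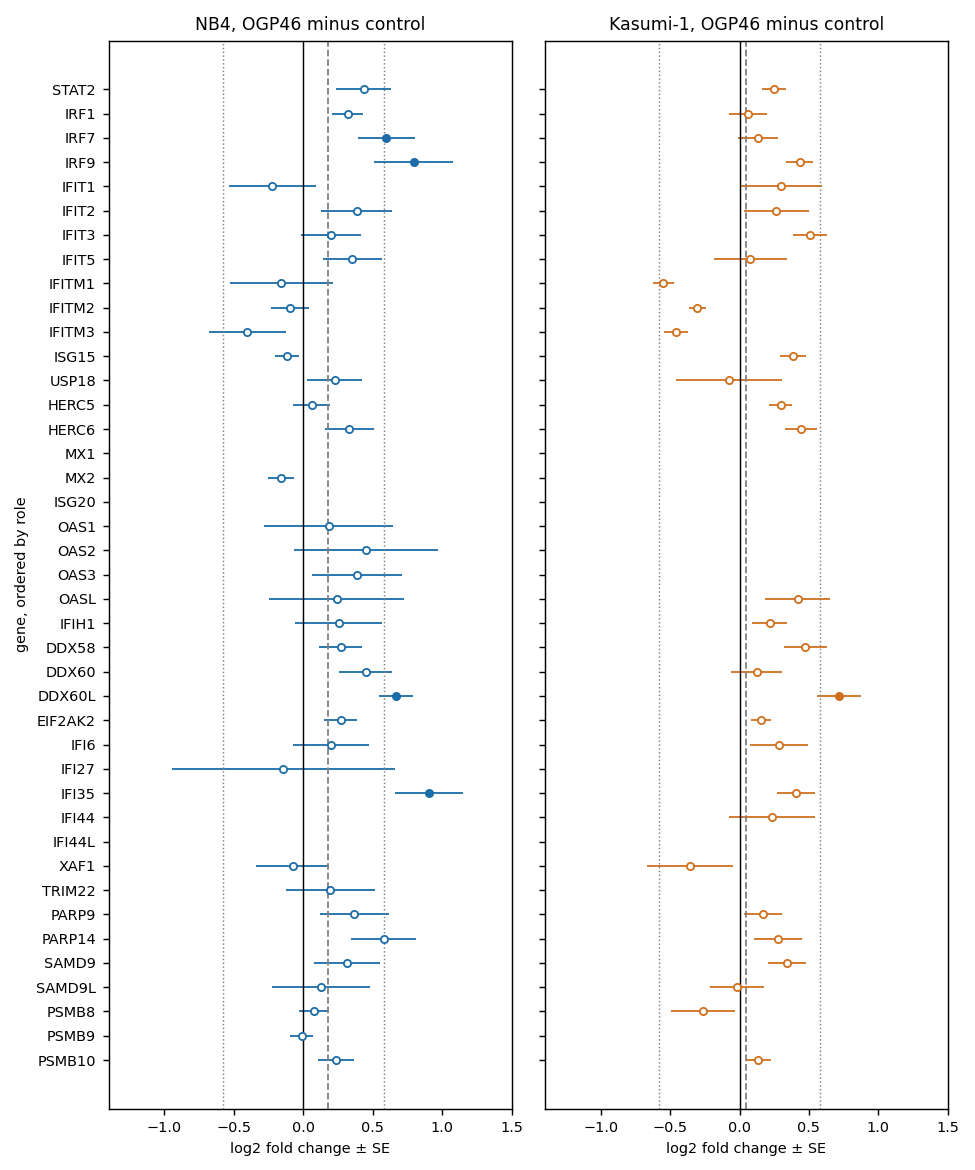
Log2 fold change (OGP46 minus control) with its standard error from the fit without the block, for members tested in NB4 (left) and Kasumi-1 (right), ordered by role. Filled points were called with or without the block, the dashed line is the median of all genes and the dotted lines are the limits at 0.58 in size; the filled points are IRF7, IRF9, IFI35 and DDX60L in NB4 and DDX60L in Kasumi-1.

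IRF9, the DNA-binding partner of STAT2, was at 3.90, 2.03 and 3.00 FPKM in NB4 controls and at 7.04, 3.53 and 5.23 FPKM with OGP46. The groups overlapped, since OGP46 sample 2 lay below control sample 1, but every OGP46 sample was above the control of its own number. The log2 fold change was 0.79 (1.73-fold, SE 0.28, adjusted p = 0.12 by limma, 0.000439 with the block). With the block it was 0.67 after TPM scaling and 0.57, under the fold limit, after median centring. In Kasumi-1, IRF9 was at 1.94, 2.03 and 2.04 FPKM in the controls and at 2.76, 2.85 and 2.60 FPKM with OGP46. These groups did not overlap, and the log2 fold change of 0.43 was under the fold limit (adjusted p = 0.0932, 0.0349 with the block).

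IRF7 was at 5.24, 3.80 and 3.81 FPKM in NB4 controls and at 8.57, 4.98 and 6.32 FPKM with OGP46. Its groups overlapped in the same manner as those of IRF9, through OGP46 sample 2 and control sample 1. The log2 fold change was 0.60 (1.51-fold, SE 0.21, adjusted p = 0.111 by limma, 0.00276 with the block). With the block the call was lost to the fold limit after TPM scaling (0.48) and median centring (0.38). In Kasumi-1, IRF7 was at 1.41, 1.44 and 1.07 FPKM in the controls and at 1.51, 1.30 and 1.49 FPKM with OGP46, with overlap and a log2 fold change of 0.13 (adjusted p = 0.677).

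STAT2 and IRF1 were below the fold limit in NB4 but had adjusted p below 0.05 with the block. STAT2 was at 5.78, 3.67 and 4.91 FPKM in NB4 controls and at 7.81, 5.11 and 6.53 FPKM with OGP46, giving a log2 fold change of 0.43 (adjusted p = 0.183, 0.00902 with the block). IRF1 had a log2 fold change of 0.32 (adjusted p = 0.115, 0.0387 with the block). After TPM scaling STAT2 was at 0.31 and IRF1 at 0.20, and after median centring at 0.21 and 0.10. With the values as deposited, all 4 transcription factors thus had adjusted p below 0.05 with the block at any fold. This was so for 8 of the 37 members tested in NB4, of which 7 were higher (also DDX60L, IFI35 and PARP14) and 1 was lower (IFITM3). Over all genes it was so for 21% upwards and 1.88% downwards.

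IFI35, an interferon-induced leucine zipper protein that pairs with NMI, was at 1.11, 1.19 and 0.637 FPKM in NB4 controls and at 2.31, 1.5 and 1.86 FPKM with OGP46. The groups did not overlap, and the log2 fold change was 0.91 (1.88-fold, SE 0.245, adjusted p = 0.0758 by limma, 0.00608 with the block). The block call was lost after median centring (0.69, adjusted p = 0.0553). In Kasumi-1, IFI35 was at 0.902, 0.946 and 0.756 FPKM in the controls and at 1.18, 1.13 and 1.23 FPKM with OGP46, also without overlap, and the log2 fold change was 0.41 (adjusted p = 0.198, 0.107 with the block).

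**Figure D4:**
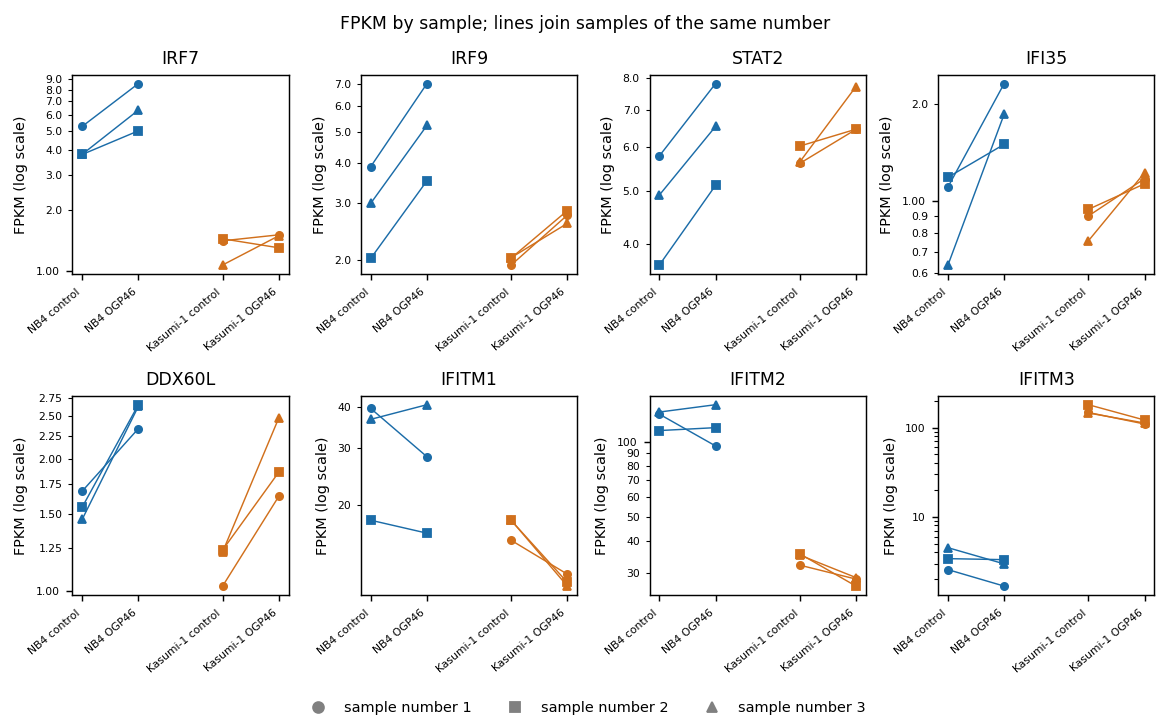
FPKM on log axes, with a separate scale for each gene, of IRF7, IRF9, STAT2, IFI35, DDX60L and the IFITM genes in all 12 samples, with lines joining the control and OGP46 sample of the same number. In NB4 the lines of IRF7, IRF9 and STAT2 rise from different heights, and in Kasumi-1 every line of the 3 IFITM genes falls.

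In Kasumi-1, 0 of 31 members were called in either direction by limma, beside 0.0169% of all genes called up and 0.0169% called down, and 13 members had an unadjusted p below 0.05 (41.9%, beside 15.6% of all genes). With the block, 1 member was called up (DDX60L) and 0 down, beside 0.27% of all genes up and 0.346% down. The median log2 fold change of the 31 members was 0.23, beside 0.05 for all genes. It was between 0.17 and 0.25 under the 3 other scalings. The groups did not overlap for 13 members that were higher with OGP46 (41.9%, beside 17.4% of all genes) and for 3 that were lower (9.68%, beside 5.23%). The 3 lower ones were IFITM1, IFITM2 and IFITM3. All 3 same-numbered pairs were higher for 19 of the 31 members (61.3%, beside 31.7%).

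With the block and at any fold, 8 members had adjusted p below 0.05 in Kasumi-1. The 5 higher ones were DDX60L, IRF9, IFIT3, HERC5 and HERC6 (beside 2.44% of all genes), and the 3 lower ones were the IFITM genes (beside 1.12%). IFIT3, which stabilises IFIT1 on viral RNA, was at 1.56, 2.06 and 1.60 FPKM in Kasumi-1 controls and at 2.53, 2.59 and 2.39 FPKM with OGP46, giving a log2 fold change of 0.51 (adjusted p = 0.115 by limma, 0.0315 with the block). HERC5 was at 7.64, 8.79 and 7.57 FPKM and at 9.75, 10.4 and 9.32 FPKM with OGP46, giving a log2 fold change of 0.30 (adjusted p = 0.145, 0.0382 with the block). HERC6 had a log2 fold change of 0.44 and an adjusted p of 0.0499 with the block, at the edge of the threshold.

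The IFITM genes, which with PSMB10 were the 4 members above 10 FPKM on average in Kasumi-1, were lower in every OGP46 sample than in every control there. IFITM1, a plasma membrane restriction factor, was at 15.6, 17.9 and 17.9 FPKM in the controls and at 12.2, 11.5 and 11.2 FPKM with OGP46. The groups did not overlap. The log2 fold change was −0.55 (1.46-fold lower, SE 0.075, adjusted p = 0.0397 by limma, 0.00842 with the block), just under the fold limit as deposited. Without the block it was the member with an adjusted p below 0.05 at any fold, beside 0.0338% of all genes downwards. It was −0.61 after median centring and −0.59 after quantile normalization, where IFITM1 was called down.

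IFITM2, which acts in endosomes, was at 32.1, 35.6 and 35.2 FPKM in Kasumi-1 controls and at 28.3, 26.5 and 28.7 FPKM with OGP46, giving a log2 fold change of −0.30 (adjusted p = 0.0898 by limma, 0.0342 with the block). IFITM3 was at 148, 181 and 146 FPKM in the controls and at 110, 121 and 113 FPKM with OGP46, giving a log2 fold change of −0.46 (adjusted p = 0.0747, 0.00734 with the block). All 3 remained below 0 under each of the 3 other scalings in both lines. Since their transcripts share sequence, their values are not independent of one another.

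In NB4 the IFITM genes gave a less uniform picture. IFITM1 was at 39.6, 17.9 and 36.7 FPKM in the controls and at 28.1, 16.4 and 40.7 FPKM with OGP46, giving a log2 fold change of −0.16 (adjusted p = 0.79). IFITM2 was at 129, 111 and 131 FPKM in the controls and at 96.0, 114 and 140 FPKM with OGP46, giving a log2 fold change of −0.09 (adjusted p = 0.656). For both genes the groups overlapped, and the same-numbered samples did not all move one way.

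IFITM3 was at 2.56, 3.40 and 4.51 FPKM in NB4 controls and at 1.67, 3.31 and 2.97 FPKM with OGP46. Each OGP46 sample was below the control of its number, although by little in sample 2, and the log2 fold change was −0.40 (adjusted p = 0.348, 0.0434 with the block). The control with the highest IFITM3 was sample 3, the one with the highest CD34. OGP46 sample 2, with the lowest CD34 of the NB4 samples (0.0149 FPKM), was at 3.31 FPKM of IFITM3. After the subtraction in proportion to CD34, controls 1 to 3 were at 2.46, 3.15 and 2.38 FPKM and OGP46 samples 1 to 3 at 1.60, 3.29 and 2.84 FPKM. The OGP46 sample was then above its control for numbers 2 and 3, and the log2 fold change was −0.095 (adjusted p = 0.808 by limma). The size of the subtraction rests on CD34 alone, and no other Kasumi-1 marker was tried. In NB4 control sample 3, CD34 was at 1.31 FPKM and KIT at 1.22 FPKM, beside means of 97.4 and 128 FPKM in Kasumi-1 controls. By KIT the part taken off that sample would be smaller, so the order for number 3 may depend on the marker.

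The other highly expressed members changed little. PSMB8 was at 23.5, 24.9 and 21.7 FPKM in NB4 controls and at 22.4, 28.5 and 23.4 FPKM with OGP46, and in Kasumi-1 at 1.84, 2.06 and 3.39 FPKM and at 1.53, 1.84 and 2.58 FPKM with OGP46. PSMB10 was at 27.4, 33.1 and 25.9 FPKM in NB4 controls and at 32.4, 39.6 and 29.9 FPKM with OGP46, and in Kasumi-1 at 18.2, 20.2 and 22.9 FPKM and at 21.2, 21.1 and 24.9 FPKM with OGP46. Groups overlapped in both lines for both subunits, with log2 fold changes between −0.26 and 0.23. EIF2AK2 was at 11.1, 8.57 and 9.33 FPKM in NB4 controls and at 11.9, 10.6 and 12.4 FPKM with OGP46, and in Kasumi-1 at 7.01, 7.21 and 7.92 FPKM and at 8.15, 8.05 and 8.41 FPKM with OGP46. The Kasumi-1 groups of EIF2AK2 did not overlap, and its log2 fold changes were 0.27 in NB4 and 0.15 in Kasumi-1 (adjusted p = 0.172 and 0.344).

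The remaining members are given by role. The IFIT genes had log2 fold changes between −0.22 and 0.39 in NB4, where 0 of 4 were called, and between 0.08 and 0.51 in Kasumi-1. IFIT1, a classical gene of type I interferon induction that binds viral RNA, was at 0.873, 0.461 and 0.570 FPKM in NB4 controls and at 0.840, 0.357 and 0.435 FPKM with OGP46, so each OGP46 sample lay below its control. The 4 OAS genes tested in NB4 had log2 fold changes between 0.18 and 0.45, and OASL, the one tested in Kasumi-1, had 0.42. MX2 had a log2 fold change of −0.16 in NB4 (adjusted p = 0.282), with each OGP46 sample below its control.

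Of the RNA sensors, DDX58, which recognises short RNA with a 5′ triphosphate, had a log2 fold change of 0.27 in NB4 and 0.47 in Kasumi-1 (adjusted p = 0.264 and 0.19), and its Kasumi-1 groups did not overlap. IFIH1 had 0.25 and 0.22. Among the PARP, SAMD9 and TRIM22 genes, PARP14 had the largest log2 fold change in NB4, 0.58 (adjusted p = 0.153, 0.0129 with the block), a little under the fold limit. IFI27, a sensitive interferon marker in blood, was at 0.726, 0 and 0.0832 FPKM in NB4 controls and at 0.356, 0.146 and 0 FPKM with OGP46. IFI44L and ISG20 stayed at or below 0.0599 FPKM in all 12 samples.

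Whether the responses of the lines differed was tested as the interaction of line and treatment over the 12 samples, with 38 members. By limma 0 members were called, as were 0% of all 12309 genes, and 1 member, ISG15, had an unadjusted p below 0.05 (2.63%, beside 11% of all genes). With the block 0 members were called in either direction. Over all genes, 1.4% had a higher signed log2 fold change in NB4 by such a call, and 0.106% a lower one. ISG15 was at 15.9, 13.7 and 15.3 FPKM in NB4 controls and at 13.4, 14.1 and 13.6 FPKM with OGP46, giving a log2 fold change of −0.12 (adjusted p = 0.368). In Kasumi-1 it was at 1.84, 1.95 and 2.03 FPKM and at 2.56, 2.57 and 2.54 FPKM with OGP46, without overlap, and the log2 fold change was 0.38 (adjusted p = 0.12, 0.0505 with the block).

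The difference of the ISG15 responses, NB4 minus Kasumi-1, was −0.50 on the log2 scale (SE 0.11, adjusted p = 0.135 by limma, 0.0649 with the block). It was called with the block combined with median centring (−0.65, adjusted p = 0.0352) or with TPM scaling (−0.65, adjusted p = 0.0351). For DDX60L the difference was −0.05 (adjusted p = 0.945), and for IRF7, IRF9 and IFI35 it was between 0.36 and 0.50, with adjusted p between 0.535 and 0.68. The different calls in the lines were thus not shown to be different responses.

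In NB4 the members went with the sample number more than all genes did. NB4 samples 1 were high and samples 2 low in both groups: the median member deviated from its group mean by 0.28 in control sample 1 and by 0.28 in OGP46 sample 1, and by −0.16 and −0.29 in samples 2, on the log2 scale. For all genes these medians lay between −0.06 and 0.04. Sample 1 was the highest of both groups for 17 of 37 members, beside 10.7% of all genes, among them IRF7, IRF9, STAT2, DDX58, IFI6, IFIT1, IFIT2, IFIT3 and the OAS genes. Sample 2 was the lowest of both groups for 21 of 37 members, beside 21.5% of all genes.

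Of each member's sum of squares in NB4, the median share that went with the number was 64.9% and that with OGP46 20.9%, beside 30.1% and 39.2% for all genes. The number has more levels than OGP46 and takes a larger share even without an effect. The shares are therefore to be read beside those of all genes, not against each other. OAS2 was at 0.913, 0.147 and 0.226 FPKM in controls 1 to 3 and at 0.807, 0.311 and 0.460 FPKM with OGP46, so its samples 1 stood apart in either group. In Kasumi-1 the shares were 22.5% with the number and 44.7% with OGP46, beside 40.2% and 22.8% for all genes. What the numbers stand for is not given by the labels, and their part in these levels was not tested beyond the block.

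**Figure D5:**
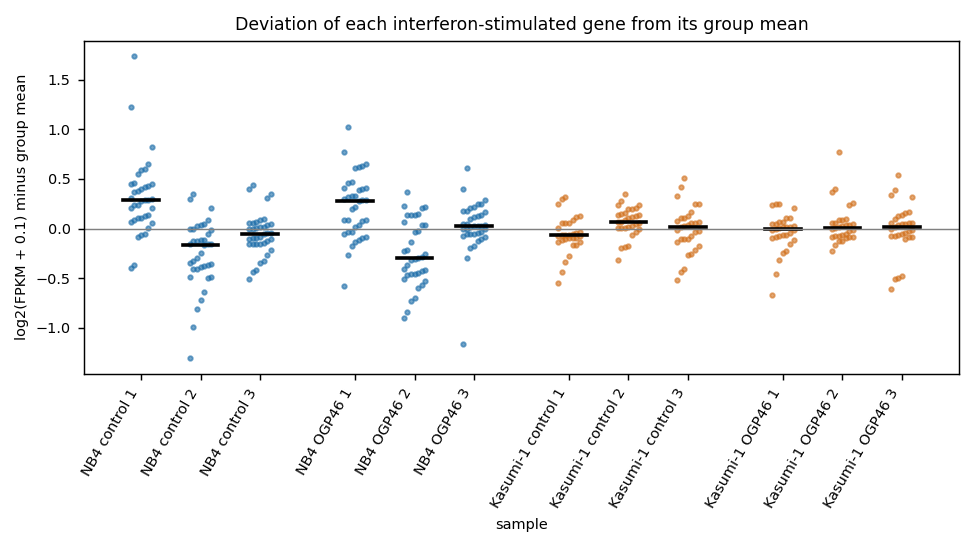
Deviation of log2(FPKM + 0.1) from the group mean, one point for each member tested, in each of the 12 samples, with black bars at the medians. In NB4 the medians of control and OGP46 samples 1 lie at 0.28 and those of samples 2 below 0, while in Kasumi-1 all medians lie between −0.07 and 0.07.

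The genes upstream of the members were followed as lists. Of 21 interferon ligands, from IFNA1 to IFNL3, 0 reached the limit for testing. They were listed at 0 in 246 of 252 values, all values of Kasumi-1 included, and the highest was IFNW1 at 0.0691 FPKM in NB4 OGP46 sample 2. Of 13 genes of interferon receptors and signalling, 12 were tested in NB4, where 1 was called up (IL10RB) and 2 with the block (IL10RB and IFNGR1). Over all genes in NB4, 1.45% were called up without the block and 5.06% with it. IFNGR1, the ligand-binding chain of the interferon gamma receptor, was at 12.7, 9.58 and 11.4 FPKM in NB4 controls and at 21.4, 13.1 and 18.2 FPKM with OGP46, giving a log2 fold change of 0.62 (adjusted p = 0.0843 by limma, 0.00111 with the block).

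Of 17 genes of nucleic acid sensing, 12 were tested in NB4, where 0 were called and with the block 2 were called up, TLR9 and TICAM1, both part of endosomal Toll-like receptor signalling. Of 52 further interferon-stimulated genes, 43 were tested in NB4 and 0 called. With the block 3 were called up (IFI16, SLFN5 and TNFSF10) and 1 down (CXCL10), beside 5.06% of all genes up and 1.15% down. CXCL10, an interferon-induced chemokine, was at 3.53, 0.143 and 4.41 FPKM in NB4 controls and at 1.32, 0.0418 and 3.10 FPKM with OGP46, so that sample 2 was the lowest in both groups, as it was for 21 of the members. In Kasumi-1, 0 genes of these 3 lists were called with or without the block, beside 0.27% of all genes up and 0.346% down with it. In the interaction with the block, IFI16, WARS and TAP1 of the further interferon-stimulated genes were called. Each had the higher log2 fold change in NB4, as had 1.4% of all genes by such a call. Mean TAP1 went from 7.51 to 7.83 FPKM with OGP46 in NB4, where the groups overlapped. In Kasumi-1 its mean went from 0.545 to 0.288 FPKM, with every OGP46 sample below every control. Mean WARS went from 36.3 to 49.9 FPKM in NB4 and from 23.6 to 20.3 FPKM in Kasumi-1. Each Kasumi-1 pair was lower with OGP46 for WARS. For IFI16 each pair was higher in both lines. The paper names TAP1 among genes significantly reduced in Kasumi-1.

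Markers of other cell types were read beside these results. In NB4, the monocyte and macrophage list (CD14, ITGAM, ITGAX, CD68, CSF1R, C5AR1, FCGR1A and CD163) summed to between 16.95 and 19.02 FPKM in the controls and to between 28.4 and 37.01 FPKM with OGP46. Of its 7 genes tested, 4 were called up, with 0 under each of the 3 other scalings, and 6 were called with the block, while CD163 was at 0 in all NB4 samples. Over all genes in NB4, 1.45% were called up without the block and 5.06% with it. In Kasumi-1 the same list summed to between 14.2 and 18.7 FPKM and to between 19.98 and 22.9 FPKM with OGP46, and 0 genes were called. The part of this change in the levels of the interferon-stimulated genes was not tested, and in bulk samples more RNA per cell and more cells of a kind cannot be told apart. Markers of plasmacytoid dendritic cells, known producers of interferon, summed to at most 0.237 FPKM in any sample, and CLEC4C was at 0 throughout. The erythroid markers summed to at most 0.184 FPKM. Of the lymphocyte markers, MS4A1 was at 0 in all samples, while CD3D was at 16.1, 13.5 and 20.4 FPKM in NB4 controls and at 25.9, 22.5 and 34.6 FPKM with OGP46. These groups of CD3D did not overlap, and the log2 fold change was 0.72 (adjusted p = 0.072 by limma, 0.000223 with the block). Of 6 markers of promyelocytic NB4 cells, 0 were called in NB4 without the block. There 3 had an unadjusted p below 0.05, MPO and PRTN3 lower and CD33 higher. With the block 4 were called down (ELANE, PRTN3, CTSG and AZU1, proteins of the azurophil granules), beside 1.15% of all genes. CD33 was higher with OGP46 without overlap in both lines. Its log2 fold change was 0.30 in NB4 and 0.36 in Kasumi-1 (adjusted p = 0.118 and 0.0611 by limma, 0.0326 and 0.0177 with the block). PRTN3 was at 146, 449 and 259 FPKM in NB4 controls and at 44.3, 212 and 106 FPKM with OGP46, each below the control of its number, and the log2 fold change was −1.36 (adjusted p = 0.155 by limma, 1.39e-05 with the block). CTSG and ELANE had log2 fold changes of −1.45 and −2.17. In Kasumi-1, 0 of these 6 genes were called with or without the block, with log2 fold changes between −0.52 and 0.36. Without the block 4 had an unadjusted p below 0.05, ELANE, PRTN3 and AZU1 lower and CD33 higher. The part of the granule genes and of CD3D in the levels of the interferon-stimulated genes was not tested. Of the fibroblast and epithelial list, the sum was between 40.3 and 56.1 FPKM in Kasumi-1 and between 6.77 and 16.6 FPKM in NB4. Nearly all of it was EPCAM in Kasumi-1, and EPCAM with KRT18 in NB4. In the controls, mean EPCAM was 48.6 FPKM in Kasumi-1 and 4.33 FPKM in NB4, and mean KRT18 was 0.0301 and 4.38 FPKM. DCN was at 0 in all samples, and COL1A1 and COL1A2 stayed at or below 0.0142 FPKM.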

How the data were processed

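The mRNA-seq values of the 12 samples were used as deposited, in the 4 groups that the labels give. The authors estimated FPKM, 1 value per gene symbol and sample, from libraries of a stranded mRNA kit. The submitters' processing notes name Trimmomatic, HISAT2, Cufflinks, HTSeq and the build hg38, without versions or roles. FPKM are divided by gene length and mapped fragments. Of the values, 632 lie above 0 and below 0.0001, so fragments were shared out by estimate. With the depth unknown, no counting interval or floor is given, and precision rests on 3 samples per group. The 27 symbols turned into dates were left out.

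The members and gene lists were chosen with earlier results of these data known. From the FPKM, log2(FPKM + 0.1) was fitted in R (version 4.3.3) with limma (version 3.58.1) and a mean-variance trend, over every gene whose mean reached 0.1 FPKM in the samples fitted, and checked on simulated data. Values per sample are given for members called in a line or in the interaction with or without the block, for the 6 members with the highest mean (IFITM2, IFITM3, PSMB10, IFITM1, PSMB8 and EIF2AK2) and, between the untreated lines, for up to 5 called members in each direction. STAT2, IFIT1, IFIT3, IFI27 and OAS2 and the genes of other lists shown by sample were picked with their values in view. One gene of the signalling list and one of the monocyte and macrophage list are not reported here, and were left out of the counts and sums of these lists.

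The numbers 1 to 3 of the labels pair the samples within a line, by the data: across genes whose mean reached 5 FPKM, deviations of same-numbered samples correlated with r between 0.44 and 0.85 in NB4 and between 0.42 and 0.62 in Kasumi-1, and across all genes tested in every pair with at least 0.16. Over all genes tested in NB4, control sample 1 with OGP46 sample 3 had r = 0.22, above the same-numbered samples 3 with r = 0.20. Pairs of sample 2 with another number had r between −0.47 and −0.30 there. Genes are not independent replicates. The alternatives tried were quantile normalization, median centring, TPM scaling, pseudocounts of 0.01 and 1, no filter, a minimum mean of 1 FPKM, no trend, the replicate block, the block with 2 scalings, each sample left out, and, added after the data were seen, the subtraction of Kasumi-1 signal from NB4 samples. Promoter windows and gene positions came from RefSeq GRCh38.p14. Shared 50-base words were counted in GENCODE transcripts.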

Additional observations from a re-analysis of the deposited data

How the results depend on the processing

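In NB4 the count of members called up, 1 without the block, was 4 with the replicate block, 2 with the block and TPM scaling, and 0 with a pseudocount of 1, with no filter on low values, with TPM scaling, median centring or quantile normalization, without a trend, and with the block and median centring. It ranged from 0 to 2 with 1 sample left out: DDX60L was lost without any of the 6, and IRF7 and IRF9 were called without NB4 OGP46 sample 2. The count called down was 1 (IFITM3) in place of 0 with the block and median centring. In Kasumi-1, the count up was 1 (DDX60L) in place of 0 with the block, alone or with either scaling, and the count down was 1 (IFITM1) in place of 0 with median centring, quantile normalization, and the block with median centring. In the interaction, 1 member (ISG15) in place of 0 was called with the block and either scaling. Between the untreated lines, the 20 members higher in NB4 became 13 with a minimum mean of 1 FPKM, where fewer genes are tested, and the 4 lower ones became 2 (HERC5 and IFITM3) with that minimum and with a pseudocount of 1. With 1 control left out they ranged from 18 to 23 and from 2 to 6, with 2 lower without Kasumi-1 control sample 2. Untreated samples of the 2 lines share only a number, with r between −0.05 and 0.02, and the block left both counts at 20 and 4. Under at least 1 of the 3 other scalings, 7 of 37 members changed sign in NB4, 1 in Kasumi-1 (IRF1), 1 between the untreated lines (HERC6) and 10 in the interaction, all with values as deposited between −0.27 and 0.24. Of the 6 members of highest mean, PSMB8 in NB4 (0.08) was at −0.049 with TPM scaling, −0.14 with median centring and −0.095 with quantile normalization, with the same values for the block with TPM scaling and with median centring. With 1 NB4 sample left out, PSMB8 ranged from −0.029 to 0.15, IFITM1 from −0.52 to 0.19 and IFITM2 from −0.24 to 0.037, and they turned without OGP46 sample 2 (PSMB8 and IFITM1), control sample 1 (IFITM1, 0.05) and OGP46 sample 1 (IFITM2). Why these calls and directions moved was not tested.

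Over all genes, the counts called up and down in NB4 were between 0 and 595 and between 0 and 203 across settings, in place of 170 and 13. In Kasumi-1 they were between 0 and 52 and between 0 and 67, in place of 2 and 2. In the interaction they were between 0 and 172 and between 0 and 26, in place of 0. With FPKM alone and 3 samples per group, changes under the fold limit in low members such as OAS2, OASL and IFI27 could not be told from the spread between samples.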

Other observations

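The further interferon-stimulated genes showed the order of the NB4 samples only in part. Of the 43 tested, sample 2 was the lowest of both groups for 17, among them IFI16, GBP2, HELZ2, TNFSF10, SLFN5 and TAP1, and sample 1 was the highest of both groups for 14, among them BST2, IFI16 and SAMHD1. Over all genes the shares were 21.5% and 10.7%. Other genes of the list went against this order. Sample 2 was the highest of both groups for 11 of the 43, among them CMPK2, LY6E, GBP5 and UBA7. This was so for 20.5% of all genes and for 3 of the 37 members. In Kasumi-1, with 38 genes of the list tested, sample 2 was the lowest of both groups for 3 and sample 1 the highest for 5. Over all genes in Kasumi-1 the shares were 7.55% and 6.89%.

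Between the untreated lines, 18 of the further interferon-stimulated genes were called higher in NB4 and 8 lower, out of 43 tested, beside 22.7% and 29.7% of all genes. Among the 38 with a control mean of at least 0.1 FPKM in both lines, 14 were higher in NB4 (36.8%) and 7 lower (18.4%), beside 20.2% and 27.0% of such genes. BST2, the tetherin that holds budding viruses on the cell surface, was between 53.0 and 63.3 FPKM in NB4 controls and between 0.902 and 1.96 FPKM in Kasumi-1 controls. TAP1, the peptide transporter encoded beside PSMB9, was between 6.88 and 7.83 FPKM in NB4 controls and between 0.432 and 0.711 FPKM in Kasumi-1 controls. IFI16, a DNA sensor, was the other way, between 4.02 and 7.89 FPKM in NB4 controls and between 19.9 and 20.8 FPKM in Kasumi-1 controls. RSAD2 (viperin), usually strongly induced by interferon, was at or below 0.0568 FPKM in all NB4 samples.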
